A study of Homo sapiens with 14 samples.

Results

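Transcripts of 39 genes of glycolysis and the hypoxia response were followed in 14 RNA-seq libraries of the leukaemia cell lines MV4;11 and EOL-1. The genes were taken by symbol from a list that names transporters, glycolytic enzymes, metabolic kinases, oxygen sensors and hypoxia-induced genes. Of the 39 genes, 37 had values in each of the MV4;11 tables and 38 in the EOL-1 table, among 15025, 15025 and 15031 genes, and 37 were tested in every table. P4HA2 was not analysed here, and EGLN3 had values in EOL-1 only, at 8 to 13 counts per library, and was not tested.

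MV4;11 cells derive from a myelomonocytic leukaemia with an MLL fusion, and EOL-1 cells derive from an eosinophilic leukaemia. There were 7 groups of 2 libraries, and all of them, the controls included, grew in RPMI1640 with serum and received doxycycline at 1 µg/ml for 4 days. MV4;11 cells carried an empty vector (EV) or a hairpin against EZH2 (shEZH2) in the first table. In the second they carried an empty guide vector (sgEV), guide 1 against MYC (sgcMyc_1) or guide 5 against MYC (sgcMyc_5). EOL-1 cells carried sgEV or a guide against EZH2 (sgEZH2). A single hairpin or guide defines each targeted group. The labels do not say whether both libraries of a group stem from different cultures, and the p-values rest on a spread that may be technical only. EZH2 is a histone methyltransferase of the Polycomb complex, and MYC is a transcription factor.

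Glycolysis splits glucose into pyruvate, which lactate dehydrogenase turns into lactate or which enters the mitochondrion through pyruvate dehydrogenase. When oxygen is low, prolyl hydroxylases such as EGLN1 no longer mark HIF1A for degradation, and HIF1A pairs with ARNT and binds DNA at a short core sequence near its targets. Those targets include glucose transporters, most glycolytic enzymes, the kinase PDK1 and the growth factor VEGFA. MYC is known to bind many of the same glycolytic genes. HIF1A is controlled mostly as a protein, which RNA-seq does not measure.

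Libraries held 13313052 to 16274568 gene counts in MV4;11 and 24574102 to 30256823 in EOL-1, and levels are given as CPM, counts scaled to the size of the library within each table. EZH2 fell from 73.3 and 75.8 CPM to 9.75 and 9.70 with shEZH2, and from 70.7 and 70.4 to 27.8 and 26.1 with sgEZH2 in EOL-1. MYC transcript rose in the libraries labelled sgcMyc, from 658 and 660 CPM to 866 and 872 with guide 1 and to 818 and 822 with guide 5. The transcript thus gives no check of the knockout. MYC also rose with shEZH2, from 572.8 and 582.9 to 681.5 and 689.2 CPM, which the test below called, and it was not called in EOL-1. EZH2 fell by 0.21 on the log2 scale with guide 1, a call lost with DESeq2 and with spike-in scaling, and was not called with guide 5. Of 11 myeloid markers, 10 had values in both lines and CD14 was not analysed here, while 0 of 5 eosinophil markers had values in EOL-1. The summed level of these 10 markers was 1527 and 1546 CPM in EV and 1655 and 1682 with shEZH2. It was 1913 and 1899 in sgEV, 5383 and 5412 with guide 1, and 5018 and 5105 with guide 5, and in EOL-1 it went from 1045 and 1056 to 2658 and 2675. Single markers went both ways in MV4;11: of the 10, 3 were higher and 5 lower with shEZH2 (median log2 fold change -0.24), 5 higher and 2 lower with guide 1 (0.14), and 4 higher and 2 lower with guide 5 (0.13). In EOL-1, 8 were called, all higher (0.29). Of all genes, 27.7, 32.2, 31.2 and 26.9% were called in these 4 comparisons. The sums weigh abundant markers most, and with guide 1 single markers ranged from -0.43 to 4.55 on the log2 scale. The mitochondrial share of counts rose alongside, from 2.18 and 2.22% to 2.79 and 2.80% with shEZH2, from 2.47 and 2.41% to 3.18 and 3.14% with guide 1 and 3.44 and 3.16% with guide 5, and from 1.06 and 1.05% to 1.14 and 1.14% in EOL-1. The part of these shifts in the results below was not tested. In such bulk samples, fewer cells of a type and less RNA per cell cannot be told apart.

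Differences were tested with edgeR's quasi-likelihood test, and called at a Benjamini-Hochberg adjusted p under 0.05 over all genes of the comparison. At least 1 of the 5 comparisons called 30 of the 37 tested genes. The other 7, SLC2A1, PFKM, TPI1, PFKFB3, PDK3, ANKRD37 and BHLHE40, passed the test in none of the 5. The like count was not made over all genes, of which each comparison against a control called 26.9 to 32.2%. The map of fold changes sets the comparisons side by side.

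**Figure D1:**
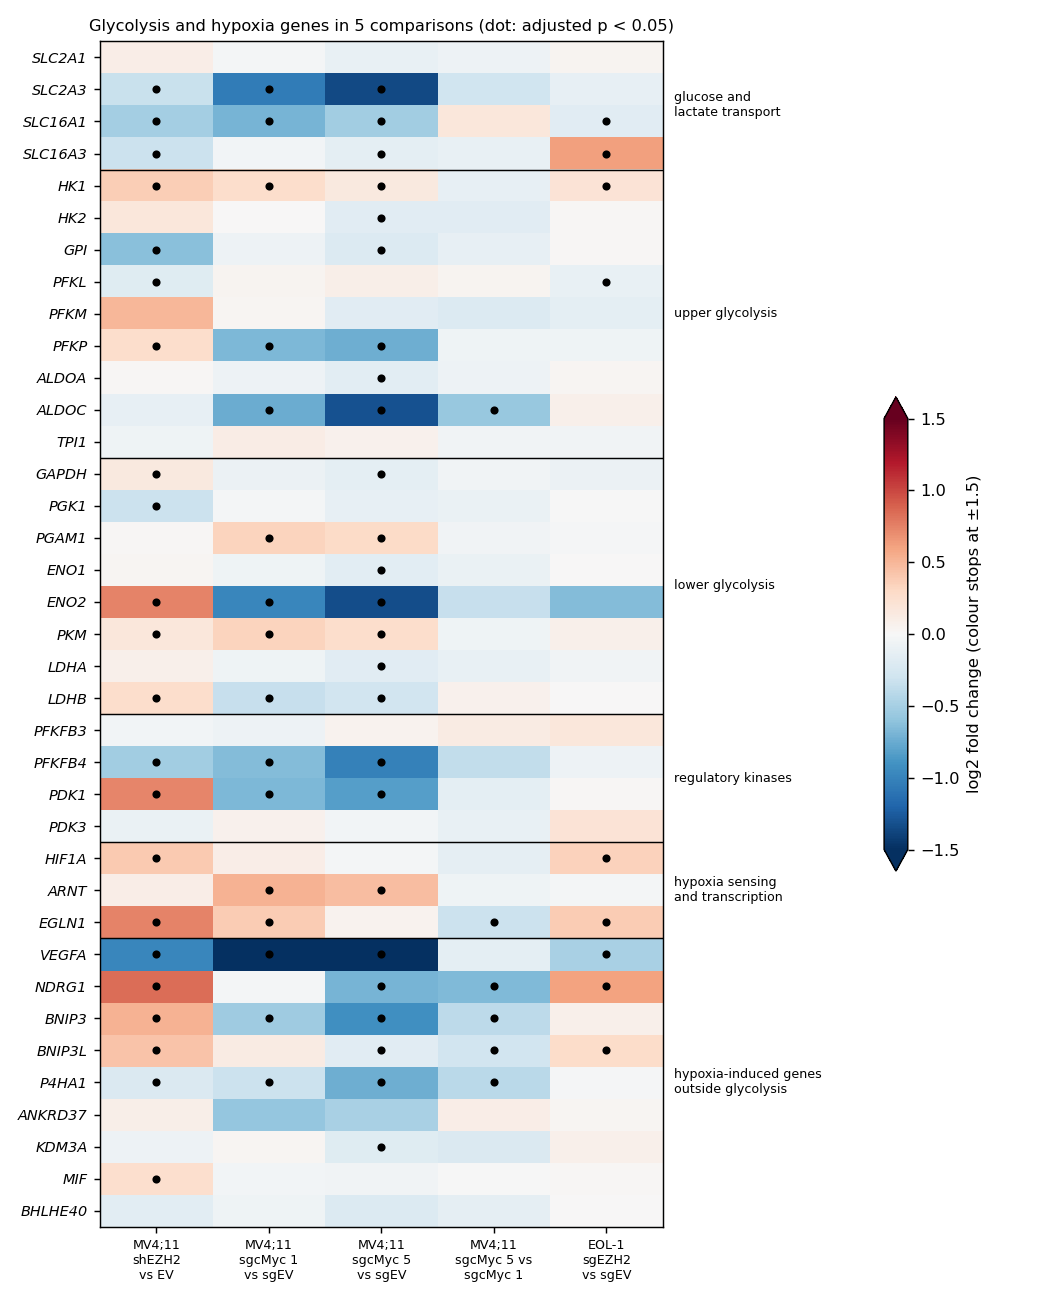
Log2 fold change of the 37 tested genes (vertical axis, grouped by role) in 5 comparisons (horizontal axis), with calls at an adjusted p under 0.05 marked. VEGFA and SLC16A1 were lower in all 4 comparisons against a control, and HK1 was higher in all 4.

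With the EZH2 hairpin in MV4;11, 13 of the 37 genes rose and 9 fell, where 13.4% of all 13591 genes tested rose and 14.2% fell. In either direction 27.7% of all genes were called, or 31.5% of those with a mean of at least 50 counts, against 59.5% of the 37. HIF1A, EGLN1, PDK1, NDRG1, BNIP3 and BNIP3L were among those that rose, and 3 of the 4 transporters fell. The median log2 fold change of the 37 genes was 0.08, beside 0.00 for all genes, so the list moved in both directions. Scaled by spike-in RNA, 8 of the 37 rose and 8 fell, and 36.4% of all calls were higher in place of 48.5%. Without shEZH2 library 2, 5 in place of 9 fell.

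Of the transporters, SLC2A3, a high-affinity glucose carrier, measured 24.3 and 22.3 CPM in EV and 18.8 and 18.0 with shEZH2. Both depleted libraries lay below both controls, at a log2 fold change of -0.34 ± 0.08 (SE, adjusted p = 0.0119). The monocarboxylate carrier SLC16A1, which moves lactate and pyruvate, went from 101 and 97.1 to 72.9 and 66.8 CPM (-0.51 ± 0.06, adjusted p = 6.8e-05). SLC16A3, the carrier of glycolytic cells that exports lactate, went from 109 and 111 to 87.4 and 87.9 CPM (-0.32 ± 0.05, adjusted p = 0.000516). SLC2A1, the main glucose carrier of many cultured cells, was at 77.4 and 74.1 CPM in EV and 82.0 and 80.4 with shEZH2, and was not called. The call of SLC2A3 was lost without EV library 1 (adjusted p = 0.0505) and without shEZH2 library 2 (adjusted p = 0.0685), and DESeq2 did not make it (adjusted p = 0.183).

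In upper glycolysis, 2 of 9 genes rose and 2 fell. GPI, which turns glucose 6-phosphate into fructose 6-phosphate, showed the largest fall of an enzyme of the main pathway, from 682 and 692 CPM to 446 and 445. That is 64.9% of the control level, with a log2 fold change of -0.62 ± 0.04 (adjusted p = 6.06e-07). The phosphofructokinase PFKP, the committing enzyme of the pathway, rose from 127 and 124 to 149 and 153 CPM (0.27 ± 0.05, adjusted p = 0.00122), while its partner PFKL fell by 0.18 on the log2 scale. HK1, a hexokinase that phosphorylates incoming glucose, rose by 0.36. HK2, ALDOA, TPI1, PFKM and ALDOC did not pass the test, and ALDOC measured 15.9 and 18.0 CPM in EV and 15.9 and 15.1 with shEZH2. Without shEZH2 library 2 the call of PFKL was lost (adjusted p = 0.175), and spike-in scaling ended that of PFKP (adjusted p = 0.106).

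In lower glycolysis, 4 of 8 genes rose and 1 fell. PGK1, the first enzyme that yields ATP, fell by 0.32 ± 0.04, and GAPDH, the step before it, rose by 0.15 ± 0.04. PKM, which makes pyruvate, rose by 0.17 ± 0.04 and the lactate dehydrogenase subunit LDHB by 0.27 ± 0.04, while LDHA, PGAM1 and ENO1 were not called. ENO2, the neuronal enolase, was low, at 1.87 and 1.85 CPM in EV and 3.10 and 3.15 with shEZH2 (0.75 ± 0.23, adjusted p = 0.0353). The ENO2 libraries did not overlap, but its call was lost without each of the 4 libraries in turn (adjusted p = 0.0709 to 0.132) and with DESeq2 (adjusted p = 0.360), and on the authors' log2 values its difference was 0.25. The calls of GAPDH and PKM were lost without either shEZH2 library, where the differences were of like size. Without libraries 1 and 2 they were 0.16 and 0.14 for GAPDH and 0.19 and 0.15 for PKM. Both calls were also lost with spike-in scaling (adjusted p = 0.0897 and 0.181).

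Among the regulatory kinases, PDK1, which switches off pyruvate dehydrogenase, rose from 33.7 and 36.0 CPM to 61.3 and 54.8. Its log2 fold change was 0.74 ± 0.07 (adjusted p = 2.3e-05), a level of 167% of the control. PFKFB4, which makes the activator of phosphofructokinase, went the other way, from 12.5 and 14.2 to 10.1 and 8.56 CPM (-0.52 ± 0.13, adjusted p = 0.0102). Its call was lost without shEZH2 library 2 (adjusted p = 0.0616) and with DESeq2 (adjusted p = 0.12), and on the authors' log2 values its difference was -0.32. PFKFB3 and PDK3 were not called.

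HIF1A, the oxygen-regulated subunit, was at 53.6 and 47.1 CPM in EV and 67.99 and 64.0 with shEZH2, a rise of 0.39 ± 0.07 (adjusted p = 0.00166) that missed the threshold with spike-in scaling (adjusted p = 0.0552). EGLN1, the hydroxylase that marks HIF1A and is itself hypoxia-induced, went from 17.6 and 16.7 to 30.1 and 27.5 CPM. Its log2 fold change of 0.74 ± 0.08 (adjusted p = 6.33e-05) was close in size to that of PDK1. ARNT, the constant partner of HIF1A, was at 68.2 and 65.8 CPM in EV and 73.2 and 70.8 with shEZH2 and was not called.

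Hypoxia-induced genes outside glycolysis split, with 4 of 9 higher and 2 lower. NDRG1, a stress-responsive gene, rose from 41.9 and 36.2 CPM to 70.3 and 69.3 (0.83 ± 0.07, adjusted p = 7.59e-06). BNIP3, a receptor for the removal of mitochondria, rose from 15.5 and 17.9 to 23.9 and 24.0 CPM (0.52 ± 0.09, adjusted p = 0.00147), and its relative BNIP3L rose by 0.43 ± 0.05. In the opposite direction, VEGFA, the growth factor of blood vessels, fell from 29.2 and 28.2 CPM to 13.4 and 15.7. That left 50.7% of the control level (-0.98 ± 0.09, adjusted p = 1.73e-05), so 2 well-known targets of the same pathway, NDRG1 and VEGFA, changed in opposite directions. P4HA1, a collagen prolyl hydroxylase, went from 48.9 and 52.0 to 46.1 and 40.8 CPM (-0.21 ± 0.07, adjusted p = 0.0457), a call lost without EV library 2 (adjusted p = 0.0989) without shEZH2 library 2 (adjusted p = 0.395) and with DESeq2 (adjusted p = 0.266). MIF, a cytokine, rose by 0.25 ± 0.05, and its call was lost without shEZH2 library 2 (adjusted p = 0.0739). KDM3A, ANKRD37 and BHLHE40 were not called.

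**Figure D2:**
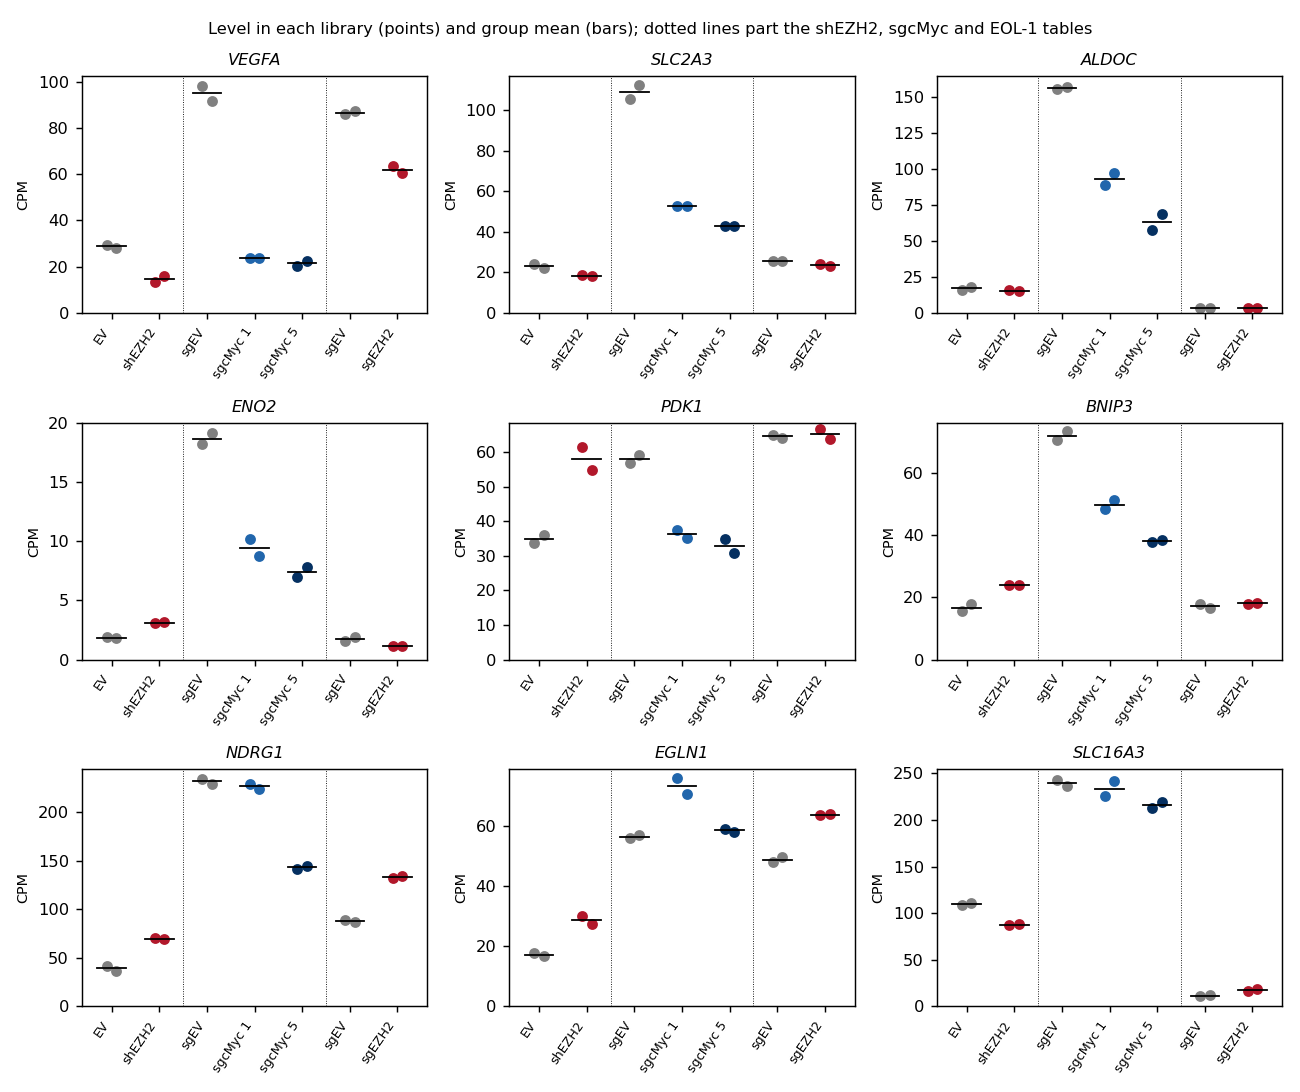
Level of 9 genes in each of the 14 libraries (vertical axes, CPM from 0) by group (horizontal axes), points being libraries and short bars group means. VEGFA lay at 13.4 and 15.7 CPM with shEZH2 against 29.2 and 28.2 in EV, and at 20.5 to 23.8 CPM with either MYC guide against 98.2 and 91.7 in sgEV.

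With guide 1 against MYC, 5 of the 37 genes rose and 11 fell, where 16.2% of all 13948 genes tested rose and 16.0% fell. With guide 5, 4 rose and 21 fell, where 15.7% of all genes rose and 15.5% fell. In either direction 32.2% of all genes were called with guide 1 and 31.2% with guide 5, or 37.7% and 36.7% of those with a mean of at least 50 counts, against 43.2% and 67.6% of the 37. Median log2 fold changes of the 37 were -0.06 with guide 1 and -0.17 with guide 5, beside 0.00 for all genes with each guide. Both guides were compared with the same 2 sgEV libraries, so their values are given side by side and are not independent. Scaled by spike-in RNA, the median of all genes moved to 0.08 with guide 1 and 0.15 with guide 5, the share of all calls that were higher went from 50.2 to 67.3% and from 50.3 to 78.3%, and 11 in place of 21 of the 37 fell with guide 5. Leaving out sgEV library 1 gave 2 higher and 12 lower with guide 5, and leaving out sgEV library 2 gave 11 lower.

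VEGFA fell most of the 37 genes with each guide. It measured 98.2 and 91.7 CPM in sgEV, 23.8 and 23.6 with guide 1, and 20.5 and 22.5 with guide 5. The MYC guide libraries lay near 25.0% and 22.6% of the control level, far below both controls. Log2 fold changes were -2.00 ± 0.07 (adjusted p = 6.13e-10) and -2.15 ± 0.07 (adjusted p = 5.63e-10).

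Of the transporters, 2 of 4 fell with guide 1 and 3 of 4 with guide 5. SLC2A3 measured 106 and 112 CPM in sgEV, 52.8 and 52.6 with guide 1, and 42.8 and 42.8 with guide 5 (-1.05 ± 0.06, adjusted p = 3.82e-08, and -1.35 ± 0.06, adjusted p = 5.78e-09). SLC16A1 measured 68.7 and 66.8 CPM in sgEV, 43.7 and 40.0 with guide 1, and 47.4 and 46.9 with guide 5 (-0.69 ± 0.07, adjusted p = 5.98e-06, and -0.52 ± 0.07, adjusted p = 6.92e-05). Neither gene overlapped its controls in any library. SLC16A3 was at 243 and 236 CPM in sgEV, 225 and 242 with guide 1, and 213 and 220 with guide 5, and its small difference with guide 5 was called (-0.15 ± 0.05, adjusted p = 0.0369). SLC2A1, the other glucose carrier, was called with neither guide. It measured 150 and 157 CPM in sgEV and 142 to 152 CPM in the 4 MYC guide libraries.

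In upper glycolysis, 1 of 9 genes rose and 2 fell with guide 1, and 1 rose and 5 fell with guide 5. ALDOC, an aldolase known as hypoxia-induced, measured 155 and 157 CPM in sgEV, 89.1 and 97.4 with guide 1, and 57.2 and 68.9 with guide 5. All 4 MYC guide libraries were below both controls (-0.74 ± 0.07, adjusted p = 1.43e-05, and -1.31 ± 0.08, adjusted p = 1.92e-07). ALDOA, the main aldolase, had differences of -0.08 and -0.16. PFKP measured 158 and 154 CPM in sgEV, 94.9 and 101 with guide 1, and 96.8 and 91.4 with guide 5 (-0.67 ± 0.05, adjusted p = 1.35e-06, and -0.73 ± 0.05, adjusted p = 7.59e-07). HK1 rose by 0.26 ± 0.05 with guide 1 and 0.14 ± 0.05 with guide 5. GPI, at 828 and 834 CPM in sgEV, measured 784 and 792 with guide 1, where it was not called, and 712 and 731 with guide 5 (-0.20 ± 0.04, adjusted p = 0.00392). HK2 and ALDOA fell by 0.17 and 0.16 with guide 5 and were not called with guide 1.

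In lower glycolysis, 2 of 8 genes rose and 2 fell with guide 1, and 2 rose and 5 fell with guide 5. PGAM1, which shifts the phosphate of phosphoglycerate, rose by 0.34 ± 0.05 and 0.29 ± 0.05 with guides 1 and 5, and PKM by 0.34 ± 0.05 and 0.27 ± 0.05. ENO2 measured 18.2 and 19.2 CPM in sgEV, 10.2 and 8.75 with guide 1, and 7.03 and 7.85 with guide 5 (-0.98 ± 0.12, adjusted p = 4.96e-05, and -1.33 ± 0.13, adjusted p = 5.81e-06). On the authors' log2 values the ENO2 differences were -0.62 and -0.81. LDHB fell by 0.35 ± 0.06 and 0.29 ± 0.06, and LDHA, the subunit that favours lactate, fell by 0.17 ± 0.04 with guide 5. It was not called with guide 1 (-0.07 ± 0.04), and the difference between the guides was not called either (adjusted p = 0.531). ENO1 and GAPDH fell by 0.16 and 0.15 with guide 5. PGK1 was called with neither guide.

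The calls of ALDOA, ENO1, GAPDH, GPI, HK2, LDHA, SLC16A3, BNIP3L and KDM3A with guide 5 were lost without sgEV library 1 (adjusted p = 0.0616 to 0.259) and without sgEV library 2 (adjusted p = 0.0710 to 0.234), where the differences themselves were of like size, at -0.21 to -0.13 and -0.20 to -0.14 on the log2 scale against -0.20 to -0.15 with both. With spike-in scaling the same 9 differences lay between -0.06 for GPI and 0.00 for SLC16A3, and none was called (adjusted p = 0.532 to 0.994). The call of KDM3A was also lost without guide 5 library 2, at -0.11 (adjusted p = 0.119). DESeq2 did not call SLC16A3, HK2, BNIP3L, KDM3A or HK1 with guide 5 (adjusted p = 0.0780 to 0.224). The rise of HK1 with guide 5 was lost without sgEV library 1 (adjusted p = 0.140) and without sgEV library 2 (adjusted p = 0.244), and was 0.29 with spike-in scaling. For PGAM1 with guide 5 the adjusted p was 0.0520 without sgEV library 1 and the rise was 0.43 with spike-in scaling, where that of PKM was 0.41, and for LDHB the adjusted p was 0.0530 without sgEV library 2. With spike-in scaling the LDHB difference with guide 5 was -0.145 against -0.288 and was not called (adjusted p = 0.0642). The fall of ALDOA was 0.09 on the log2 scale without guide 5 library 1. The guide 5 libraries themselves differed in abundant enzymes, with TPI1 at 638 and 738 CPM and LDHB at 583 and 670.

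Of the regulatory kinases, PDK1 and PFKFB4 fell with each guide. PDK1 measured 56.8 and 59.2 CPM in sgEV, 37.5 and 35.0 with guide 1, and 34.7 and 30.9 with guide 5 (-0.68 ± 0.07, adjusted p = 2.21e-05, and -0.82 ± 0.08, adjusted p = 5.22e-06). PFKFB4 measured 42.1 and 45.5 CPM in sgEV, 26.8 and 29.0 with guide 1, and 21.6 and 21.7 with guide 5 (-0.65 ± 0.08, adjusted p = 3.57e-05, and -1.02 ± 0.08, adjusted p = 1.13e-06). Neither gene's MYC guide libraries reached the control range, and PFKFB3 and PDK3 were not called.

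The HIF subunits were not among the genes that fell. ARNT measured 80.7 and 78.3 CPM in sgEV, 113 and 115 with guide 1, and 110 and 110 with guide 5, a rise of 0.52 ± 0.05 (adjusted p = 8.11e-06) and 0.46 ± 0.05 (adjusted p = 2.74e-05). HIF1A was at 67.5 and 67.4 CPM in sgEV, 76.3 and 68.2 with guide 1, and 68.7 and 63.1 with guide 5, and was called with neither. EGLN1 measured 55.9 and 56.9 CPM in sgEV, 76.0 and 70.8 with guide 1, and 59.1 and 58.0 with guide 5. It rose with guide 1 (0.38 ± 0.06, adjusted p = 0.00045) and was not called with guide 5, and the difference between the guides was called, as given with that comparison.

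Of the hypoxia-induced genes outside glycolysis, 3 of 9 fell with guide 1 and 6 with guide 5. edgeR called 0 higher with either guide, as did DESeq2 and limma, and 1 was higher at an unadjusted p under 0.05, with guide 1. BNIP3 measured 70.9 and 73.5 CPM in sgEV, 48.5 and 51.4 with guide 1, and 37.8 and 38.4 with guide 5 (-0.53 ± 0.06, adjusted p = 3.47e-05, and -0.92 ± 0.06, adjusted p = 4.07e-07). P4HA1 measured 135 and 134 CPM in sgEV, 107 and 107 with guide 1, and 79.4 and 82.4 with guide 5 (-0.32 ± 0.05, adjusted p = 0.000314, and -0.73 ± 0.05, adjusted p = 4.07e-07). For both genes the libraries stood in the order sgEV, guide 1, guide 5 with no overlap. With spike-in scaling the P4HA1 difference with guide 1 missed the threshold (adjusted p = 0.0600). NDRG1 measured 235 and 229 CPM in sgEV and 230 and 224 with guide 1, which overlapped, and 142 and 145 with guide 5 (-0.70 ± 0.05, adjusted p = 2.36e-07). BNIP3L and KDM3A fell by 0.17 and 0.18 with guide 5, and MIF, ANKRD37 and BHLHE40 were called with neither guide.

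Guide 5 was then compared directly with guide 1, where 6 of the 37 genes were lower and 0 higher. Over all 13948 genes, 0.33% were lower and 0.0789% higher, 57 genes or 0.409% in all, and 0.444% of those with a mean of at least 50 counts. At an unadjusted p under 0.05, edgeR had 15 of the 37 lower and 1 higher. At an adjusted p under 0.05, DESeq2 called 4 lower and limma 5, and neither called any higher. The 6 were NDRG1 (-0.66 ± 0.05, adjusted p = 5.73e-05), ALDOC (-0.56 ± 0.08, adjusted p = 0.0111), P4HA1 (-0.41 ± 0.05, adjusted p = 0.00523), BNIP3 (-0.39 ± 0.07, adjusted p = 0.0259), EGLN1 (-0.33 ± 0.06, adjusted p = 0.0392) and BNIP3L (-0.29 ± 0.05, adjusted p = 0.0248). All 6 are known hypoxia-induced genes, which the list was drawn up to hold. ALDOC is a glycolytic enzyme, EGLN1 an oxygen sensor, and the other 4 belong to the hypoxia-induced genes outside glycolysis. The common enzymes of the pathway were not called between the guides. Under other settings their differences shifted, from -0.16 to 0.05 for TPI1, -0.14 to -0.01 for ALDOA and -0.14 to -0.03 for ENO1. The lowest value of each came without guide 5 library 2. The median difference of the 37 genes was -0.11, beside 0.00 for all genes. VEGFA, at 23.8 and 23.6 against 20.5 and 22.5 CPM, was not called, nor was SLC2A3 (-0.30 ± 0.06, adjusted p = 0.0747).

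The calls between the guides were fewer or more under other settings. Without guide 1 library 1, 1 of the 37 genes was lower, and without guide 1 library 2, also 1. Without guide 5 library 1, 11 were lower and 1 higher, and without guide 5 library 2, 15 were lower. Scaled by spike-in RNA, 0 of the 37 were called by edgeR, where 8 were lower and 2 higher at an unadjusted p under 0.05, and the NDRG1 difference was -0.60 (adjusted p = 0.0891). A fit of only these 4 libraries called 2. For ALDOC, P4HA1, BNIP3, EGLN1 and BNIP3L the adjusted p was 0.0851 to 0.560 without guide 1 library 1 and 0.141 to 0.393 without library 2, while the NDRG1 call held without each of the 4 libraries in turn. The differences of those 5 genes were of like size without library 1, from -0.63 for ALDOC to -0.25 for BNIP3L, and without library 2, from -0.49 for ALDOC to -0.33 for BNIP3L. DESeq2 did not call BNIP3 (adjusted p = 0.130) or EGLN1 (adjusted p = 0.281) between the guides.

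**Figure D3:**
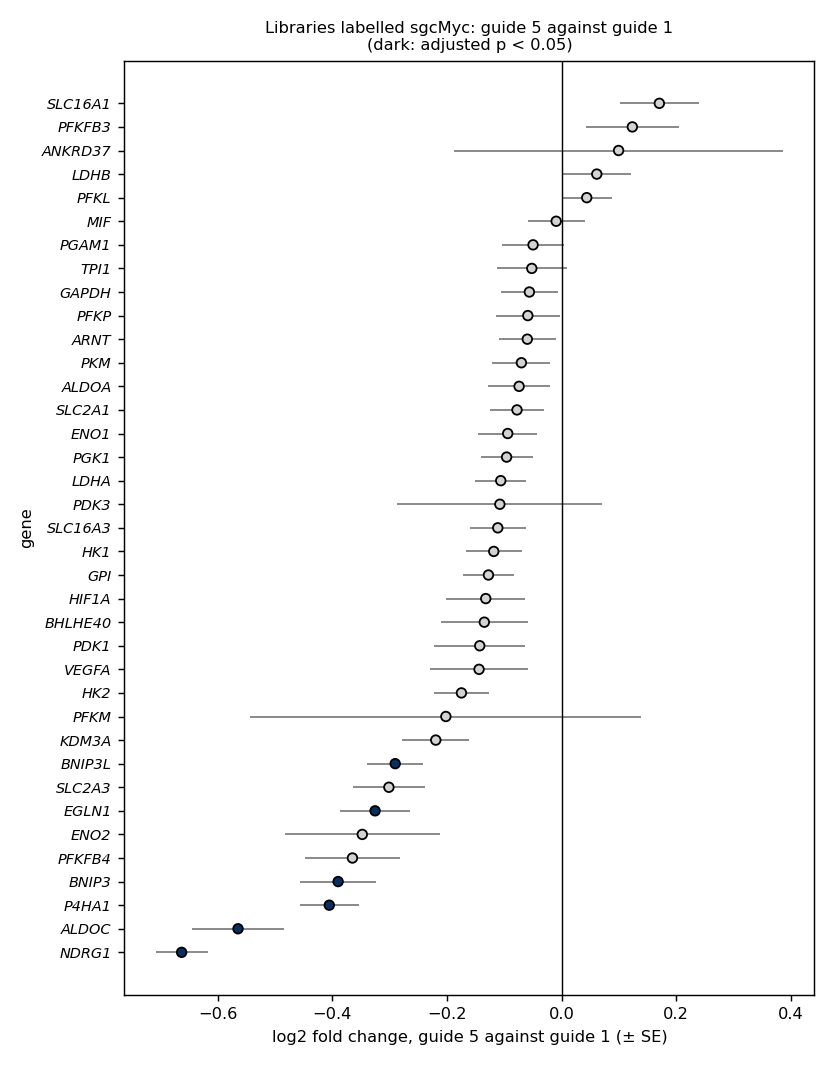
Difference between guide 5 and guide 1 on the log2 scale (horizontal axis, points with SE bars) for the 37 tested genes (vertical axis), dark points being called at an adjusted p under 0.05. The 6 called genes all lie to the left, from BNIP3L at -0.29 to NDRG1 at -0.66.

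RefSeq promoter windows (GRCh38.p14, 250 bases before to 50 after the start) were found for 34 of the 39 genes, 62 windows in all. SLC2A3, VEGFA, NDRG1, SLC16A1 and BNIP3L had no entry. The windows were searched on both strands for ACGTG and GCGTG, the core letters of the hypoxia response element, and for CACGTG, the E-box letters that MYC is known to bind, which contain the first of these cores. A core, ACGTG or GCGTG, stood in 66.1% of the members' windows and in 48.4% of all 35116 windows. ACGTG alone stood in 40.3% against 21.4%, GCGTG in 38.7% against 36.5% and CACGTG in 14.5% against 7.26%. Windows of 1 gene can overlap, and the letters of a match show no binding. All windows were taken whether or not their genes are expressed, and base composition was not matched. The list was also drawn up to hold known hypoxia-induced genes. Shown are the 250 bases before the start for the 4 genes with an entry that were lower with guide 5 than with guide 1, and for PGAM1, which rose with each guide. They were chosen after their values were seen, run 5′ to 3′ on the gene's strand, and have matches on either strand in capitals.
ALDOC (chr17:28576896-28577145, minus strand): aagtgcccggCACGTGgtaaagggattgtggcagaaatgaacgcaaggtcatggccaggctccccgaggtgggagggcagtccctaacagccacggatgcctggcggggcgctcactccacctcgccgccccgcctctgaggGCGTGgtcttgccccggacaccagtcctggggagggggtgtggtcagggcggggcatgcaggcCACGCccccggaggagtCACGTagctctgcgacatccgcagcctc
BNIP3 (chr10:131981924-131982173, minus strand): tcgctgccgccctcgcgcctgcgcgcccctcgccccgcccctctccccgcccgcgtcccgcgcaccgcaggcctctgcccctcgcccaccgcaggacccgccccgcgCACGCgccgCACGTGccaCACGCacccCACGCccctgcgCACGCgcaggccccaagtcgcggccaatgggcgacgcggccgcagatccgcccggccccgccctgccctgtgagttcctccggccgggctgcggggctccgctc
P4HA1 (chr10:73096867-73097116, minus strand): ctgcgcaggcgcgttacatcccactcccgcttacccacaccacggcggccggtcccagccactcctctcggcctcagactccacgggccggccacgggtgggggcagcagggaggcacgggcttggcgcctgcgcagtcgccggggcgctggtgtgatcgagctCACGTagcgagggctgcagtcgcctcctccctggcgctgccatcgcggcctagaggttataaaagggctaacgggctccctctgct
EGLN1 (chr1:231422288-231422537, minus strand): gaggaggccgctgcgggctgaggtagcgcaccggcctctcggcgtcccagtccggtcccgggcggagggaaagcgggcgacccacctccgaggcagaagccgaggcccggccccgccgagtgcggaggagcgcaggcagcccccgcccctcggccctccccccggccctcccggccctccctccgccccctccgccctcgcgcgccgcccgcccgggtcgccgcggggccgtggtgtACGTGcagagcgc
PGAM1 (chr10:97427568-97427817, plus strand): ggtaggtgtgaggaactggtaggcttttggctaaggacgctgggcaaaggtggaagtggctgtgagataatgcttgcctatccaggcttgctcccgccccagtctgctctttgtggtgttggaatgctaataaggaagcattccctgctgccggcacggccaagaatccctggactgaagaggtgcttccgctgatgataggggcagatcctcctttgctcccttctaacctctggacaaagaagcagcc
The ALDOC window held 5 matches and that of BNIP3 held 6, each with 1 CACGTG, which reads the same on both strands and so counts as 2 of these matches. P4HA1 and EGLN1 held 1 each, and PGAM1 held 0. Of the other genes that rose with each guide, PKM held a core in 1 of 1 window, HK1 in 2 of 7 and ARNT in 0 of 1. With guide 5, a core stood in any window of 16 of 16 genes that fell, 2 of 4 that rose and 12 of 12 not called. Between the guides it stood in 4 of 4 that were lower and 26 of 28 not called. Genes that fell and genes not called thus held cores alike.

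In EOL-1 cells with the EZH2 guide, 6 of the 37 genes rose and 3 fell, where 15.1% of all 13890 genes tested rose and 11.8% fell. In either direction 26.9% of all genes were called, or 30.5% of those with a mean of at least 50 counts, against 24.3% of the 37, and their median log2 fold change was 0.01, as for all genes. Of the 8 genes of lower glycolysis and the 4 regulatory kinases, 0 were called by edgeR, 4 had an unadjusted p under 0.05, and DESeq2 and limma called 1 each, lower. Without sgEZH2 library 2, 6 in place of 3 fell.

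NDRG1 measured 89.1 and 86.9 CPM in sgEV and 133 and 135 with sgEZH2. Both depleted libraries lay well above the controls (0.60 ± 0.04, adjusted p = 1.03e-09). EGLN1 went from 48.1 and 49.6 to 63.8 and 63.9 CPM (0.39 ± 0.05, adjusted p = 3.74e-06), and HIF1A from 42.9 and 41.9 to 56.4 and 51.2 (0.35 ± 0.05, adjusted p = 7.85e-05). ARNT, at 56.6 and 56.2 against 55.7 and 54.6 CPM, was not called. BNIP3L rose by 0.27 ± 0.05 and HK1 by 0.20 ± 0.05, the latter a call lost without sgEV library 1 (adjusted p = 0.0516) and with DESeq2 (adjusted p = 0.107).

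VEGFA fell from 86.0 and 87.2 to 63.4 and 60.5 CPM (-0.48 ± 0.04, adjusted p = 1.08e-07), 71.5% of the control level. SLC16A1 fell from 200 and 203 to 184 and 173 CPM (-0.18 ± 0.04, adjusted p = 0.00133). PFKL fell by 0.12, a call lost without sgEV library 1 (adjusted p = 0.0769) and without sgEV library 2 (adjusted p = 0.182). SLC16A3, the lactate exporter, rose from 11.1 and 11.5 to 16.1 and 18.7 CPM (0.62 ± 0.09, adjusted p = 3.16e-05), and by 0.38 on the authors' log2 values. Several genes that moved in MV4;11 were not called here, among them GPI at 635 and 642 against 643 and 651 CPM and PDK1 at 65.0 and 64.1 against 66.7 and 63.8. BNIP3 was at 17.8 and 16.6 against 18.0 and 18.4 CPM, PFKP at 36.8 and 36.7 against 35.4 and 34.6, and P4HA1 at 18.3 and 17.4 against 19.2 and 16.0. ALDOC, PFKFB4 and ENO2 were low in this line, at 3.11 and 3.31, 2.49 and 2.39, and 1.61 and 1.90 CPM in sgEV, and SLC2A3 was at 25.5 and 25.8 against 24.1 and 23.0, and none of the 4 was called.

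The effects of EZH2 depletion were compared between the lines by testing the difference of the log2 fold changes over 8 libraries. For 10 of the 37 genes the MV4;11 value was above that of EOL-1 and for 5 it was below. Of all 13543 genes tested, 12.5% lay above and 14.1% below, 26.5% in all. The share was 30.7% of genes with a mean of at least 50 counts, against 40.5% of the 37. The lines also differ in the tool, a hairpin against a guide, and in the remaining EZH2 transcript, 13.1% against 38.3% of control. These cannot be told apart from the line, and the libraries give no level of EZH2 protein. In both lines HK1, HIF1A, EGLN1, NDRG1 and BNIP3L rose, which is 38.5% of the 13 that rose in MV4;11 and 83.3% of the 6 in EOL-1. SLC16A1, PFKL and VEGFA fell in both, 33.3% of the 9 and all 3. Such overlaps were not counted over all genes. SLC16A3 was called in opposite directions, and the difference was -0.93 ± 0.09 (adjusted p = 2.93e-06). For GPI the difference was -0.63 ± 0.04 (adjusted p = 4.4e-08) and for PDK1 0.73 ± 0.08 (adjusted p = 1.17e-05), both changed in MV4;11 and not called in EOL-1. VEGFA, EGLN1 and NDRG1 moved the same way in both lines and further in MV4;11, by -0.49 ± 0.10, 0.37 ± 0.09 and 0.24 ± 0.08. For HIF1A the difference was 0.05 ± 0.09 (adjusted p = 0.741). The NDRG1 difference was not called without EV library 2, at 0.13 (adjusted p = 0.227), and also without either shEZH2 library, either sgEV library or sgEZH2 library 1 (adjusted p = 0.0639 to 0.110), and that of EGLN1 without shEZH2 library 1 (adjusted p = 0.0589). DESeq2 called neither (adjusted p = 0.119 for NDRG1 and 0.0737 for EGLN1).

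**Figure D4:**
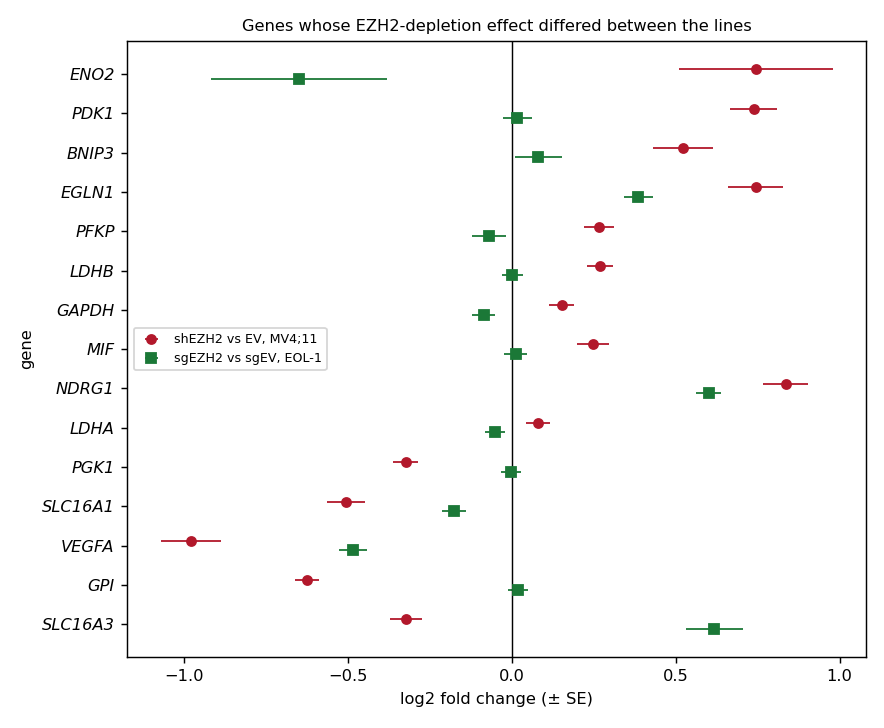
Log2 fold change with EZH2 depletion (horizontal axis, points with SE bars) in MV4;11 (circles) and EOL-1 (squares) for the 15 genes whose effect differed between the lines. SLC16A3 lies at -0.32 in MV4;11 and at 0.62 in EOL-1, and GPI at -0.62 and 0.02.

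EZH2 depletion and the MYC guides in MV4;11 come from separate tables with separate controls. Of the 13 genes that rose with shEZH2, 5 fell with guide 1, namely PDK1, BNIP3, ENO2, PFKP and LDHB, 38.5% of the 13 and 45.5% of the 11 that fell with guide 1. Of the 9 that fell with shEZH2, SLC2A3, SLC16A1, PFKFB4, VEGFA and P4HA1 fell with guide 1 as well, 55.6% of the 9 and 45.5% of the 11. HK1, PKM and EGLN1 rose in both, 23.1% of the 13 and 60.0% of the 5. With guide 5, which shares its controls with guide 1, 8 of the 13 fell, the same 5 with GAPDH, NDRG1 and BNIP3L, 61.5% of the 13 and 38.1% of the 21 that fell with guide 5. Of the 9, 7 fell with guide 5, the same 5 with SLC16A3 and GPI, 77.8% of the 9 and 33.3% of the 21, and HK1 and PKM rose in both. Beside these overlaps, 11 of all 37 genes fell with guide 1 and 21 of all 37 with guide 5, so 8 of the 13 is near the share of the whole list. The overlaps were not counted over all genes, and no difference between these comparisons was tested.

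The controls of the MV4;11 tables did not have the same levels. Mean CPM was at least 2-fold higher in sgEV than in EV for 14 of the 37 genes, 37.8%, against 5.93% of the 12217 genes above 1 CPM in both controls. It was at least 2-fold lower for 0 of the 37, against 0.925% of all. The median log2 ratio was 0.59 for the 37 genes and 0.01 for all. ENO2 was 10.0-fold higher in sgEV, ALDOC 9.21-fold, NDRG1 5.94-fold, SLC2A3 4.68-fold, BNIP3 4.32-fold, VEGFA 3.31-fold, EGLN1 3.28-fold and PFKFB4 3.27-fold. Hence VEGFA with either MYC guide, at 20.5 to 23.8 CPM, lay below EV at 29.2 and 28.2, while ALDOC with guide 5, at 57.2 and 68.9, lay above EV at 15.9 and 18.0. The tables were scaled separately, no test was made across them, and vector and any difference in culture cannot be told apart. The common enzymes GAPDH, LDHA, PGAM1, ENO1 and TPI1 differed little between these controls, at log2 ratios of 0.16, 0.00, 0.02, -0.14 and -0.04.

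**Figure D5:**
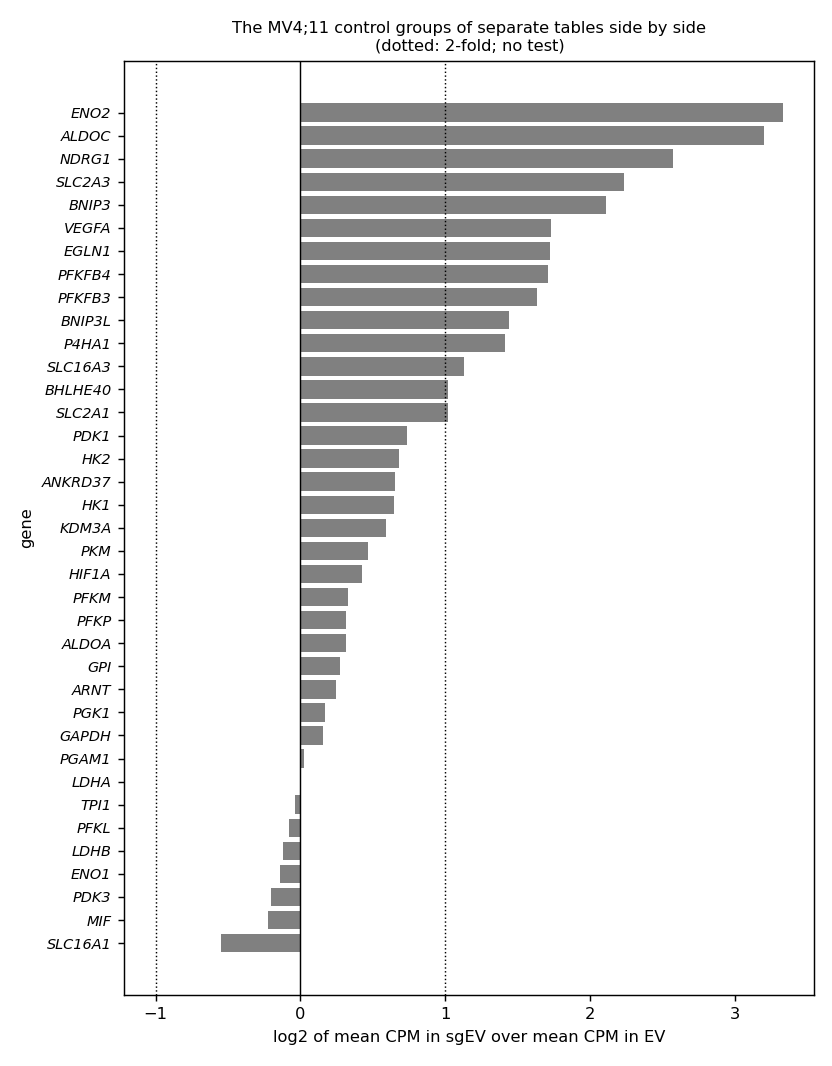
Log2 ratio of mean CPM in sgEV over EV, both MV4;11 controls (horizontal axis, bars from 0), for the 37 genes (vertical axis), dotted lines marking 2-fold. Bars of 14 genes pass 2-fold on the higher side, led by ENO2 at 10.0-fold, and 0 on the lower side.

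Further genes of the pathway were described by lists. Of further hypoxia targets, 3 of 27 tested rose and 5 fell with shEZH2, 4 of 31 rose and 13 fell with guide 1, 1 rose and 17 fell with guide 5, and 10 of 30 rose and 2 fell in EOL-1. These are 29.6, 54.8, 58.1 and 40.0% called, beside 27.7, 32.2, 31.2 and 26.9% of all genes, so the share with shEZH2 was near that of all genes. Between the guides, 1 of 31 further targets was called, lower, or 3.23% beside 0.409% of all genes. Their median difference was -0.11 beside 0.00 for all genes. DDIT4, an inhibitor of mTOR signalling, measured 85.3 and 83.0 CPM in sgEV, 9.09 and 10.1 with guide 1, and 9.58 and 9.72 with guide 5 (-3.13 ± 0.08 and -3.12 ± 0.08). The chemokine receptor CXCR4 moved the other way, from 47.8 and 47.7 CPM to 175 and 178 and to 158 and 162 (1.89 ± 0.05 and 1.74 ± 0.05). It also rose with shEZH2 (0.85 ± 0.05) and in EOL-1 (0.31 ± 0.04), where the peptide hormone gene ADM rose by 2.21 ± 0.12, or 1.06 on the authors' log2 values. TPD52 fell by 0.42, 0.81 and 0.49 with shEZH2, guide 1 and guide 5 and rose by 0.75 in EOL-1.

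Of HIF regulators, 1 of 12 was called with shEZH2, higher, 3 of 13 rose and 1 fell with each guide, and 3 of 12 were called in EOL-1, all lower. The shares called were 8.33, 30.8, 30.8 and 25.0%, beside 27.7, 32.2, 31.2 and 26.9% of all genes. Those with the guides and in EOL-1 were thus near the shares of all genes, and that with shEZH2, 1 of 12, was lower. Between the guides, 0 of 13 were called, beside 0.409% of all genes. SIAH2, a ligase that destroys prolyl hydroxylases, measured 63.1 and 66.1 CPM in sgEV, 32.0 and 30.5 with guide 1, and 34.2 and 34.9 with guide 5 (-1.05 ± 0.07 and -0.90 ± 0.07). It was the 1 regulator that fell with each guide.

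Of further enzymes of glucose use, 2 of 30 rose and 4 fell with shEZH2, 9 rose and 3 fell with guide 1, 7 rose and 6 fell with guide 5, and 8 of 27 rose and 1 fell in EOL-1. That is 20, 40.0, 43.3 and 33.3% called, beside the 27.7, 32.2, 31.2 and 26.9% of all genes. PCK2, the mitochondrial enzyme that makes phosphoenolpyruvate, measured 113 and 112 CPM in sgEV, 13.2 and 15.5 with guide 1, and 13.3 and 15.8 with guide 5, and it fell with shEZH2 from 42.3 and 46.6 to 21.9 and 22.1. HK3, a hexokinase of myeloid cells, rose from 5.17 and 5.25 CPM to 31.2 and 27.0 with guide 1 and 24.1 and 26.1 with guide 5. The summed myeloid markers given above rose as well, though single markers went both ways. FBP1, which runs the phosphofructokinase step in reverse, rose by 1.90 ± 0.17 and 1.64 ± 0.17 with guides 1 and 5. On the authors' log2 values the guide differences of HK3 were 1.55 and 1.38 and those of FBP1 0.94 and 0.78. SLC2A5, a fructose carrier, fell by 0.82 with shEZH2 (0.50 on the authors' log2 values), fell by 0.55 with guide 5 and rose by 0.92 in EOL-1.

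In the pentose phosphate pathway, 2 of 11 rose and 2 fell with shEZH2, 3 rose and 3 fell with guide 1, 3 rose and 2 fell with guide 5, and 4 were called in EOL-1, all higher, or 36.4, 54.5, 45.5 and 36.4% beside 27.7, 32.2, 31.2 and 26.9% of all genes. Its dehydrogenase PGD rose by 0.56 ± 0.04 and 0.47 ± 0.04 with guides 1 and 5 and by 0.16 ± 0.03 in EOL-1. Of the MondoA and TXNIP genes, which answer to glucose phosphates, 4 of 6 were called with shEZH2 and 3 in EOL-1, all higher, while 3 rose and 2 fell with guide 1 and 1 rose and 2 fell with guide 5. Shares called were 66.7, 83.3, 50 and 50% with shEZH2, guide 1, guide 5 and in EOL-1, of 6 genes. TXNIP, which limits glucose uptake, rose by 0.58 ± 0.04 with shEZH2, 0.42 ± 0.05 with guide 1, 0.16 ± 0.05 with guide 5 and 0.25 ± 0.04 in EOL-1. Its guide 5 call was lost without sgEV library 1 (adjusted p = 0.119) and without sgEV library 2 (adjusted p = 0.157), and the rise was 0.31 with spike-in scaling. The related ARRDC4 rose by 1.36 ± 0.12 with shEZH2 and 0.81 ± 0.08 in EOL-1, or 0.79 and 0.52 on the authors' log2 values. In the TCA cycle, 1 of 20 rose and 4 fell with shEZH2, 4 rose and 1 fell with each guide, and 2 rose and 1 fell in EOL-1. The shares called, 25.0% in each MV4;11 comparison and 15.0% in EOL-1, were near or below the 27.7, 32.2, 31.2 and 26.9% of all genes.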

How the data were processed

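RNA-seq libraries were made from total RNA, 14 in all and 2 in each of 7 groups, grouped by sample title. Columns of the tables bear shortened names, which were assigned by target, guide and replicate number. Per the file headers, raw columns are deposited estimated counts per gene, and the submitters' processing notes list RSEM and DESeq with the hg19 build. Normalised columns are log2 values made by the authors, and 1 further deposited column, a mean signal, was not used. Versions, aligner, annotation, filters and strand setting: not given in the sources used here. Overlapping or antisense genes may therefore share reads, and abundant enzymes with processed pseudogenes, such as GAPDH, PGK1, LDHA, ENO1 and PGAM1, are uncertain.

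Estimated counts were rounded. Genes passed filterByExpr, and libraries were scaled by TMM within each table without the 56 spike-in entries of MV4;11 (1.06 to 1.30% of counts). Each table was fitted with glmQLFit (robust) and glmQLFTest of edgeR 4.0.16 in R 4.3.3, with Benjamini-Hochberg adjustment over all genes. SEs were derived from the fold change and the F statistic. The lines were compared by an interaction contrast over 8 libraries. Alternatives were DESeq2 1.42.0, limma 3.58.1 on the authors' log2 values, other filters and scalings, spike-in scaling, a replicate block and leaving out each library. A date stands in place of a symbol in 18 entries per table, which were not named. Copies of a library were looked for: chi-square per degree of freedom between the libraries of a group ran from 1.44 to 5.82, highest with guide 5, so none was counted as a copy. The test was tried on simulated data.

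The members and lists were chosen with earlier results of these data known. Values in every library are given for HIF1A, ARNT and the genes called with an absolute log2 fold change of at least 0.5 in any of the 5 comparisons, and up to 4 called genes with the smallest p are named per further list. Promoters come from RefSeq on another build, and coordinates are given for them only.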

Additional observations from a re-analysis of the deposited data

Results flagged for a closer look

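For 15 of the 37 genes the effect of EZH2 depletion differed between MV4;11 and EOL-1 by the interaction test of edgeR (log2 fold change in MV4;11 minus that in EOL-1, Benjamini-Hochberg adjusted over 13543 genes). That is 40.5%, beside 26.5% of all genes and 30.7% of those with a mean of at least 50 counts. The MV4;11 value was the lower for SLC16A3 (-0.93, adjusted p = 2.93e-06), GPI (-0.63, adjusted p = 4.4e-08), VEGFA (-0.49, adjusted p = 0.00157), SLC16A1 (-0.32, adjusted p = 0.00243) and PGK1 (-0.31, adjusted p = 1e-04). It was the higher for ENO2 (1.40, adjusted p = 0.00792), PDK1 (0.73, adjusted p = 1.17e-05), BNIP3 (0.45, adjusted p = 0.00885), EGLN1 (0.37, adjusted p = 0.00712), PFKP (0.34, adjusted p = 0.000906) and LDHB (0.27, adjusted p = 0.000643). Smaller positive differences were those of GAPDH (0.25, adjusted p = 0.00228), MIF (0.24, adjusted p = 0.0133), NDRG1 (0.24, adjusted p = 0.03) and LDHA (0.14, adjusted p = 0.0291), of which LDHA was called in neither line alone. The LDHA and MIF differences were lost without several single libraries: for LDHA either shEZH2 library, either sgEV library or sgEZH2 library 1 (adjusted p = 0.0661 to 0.127), and for MIF EV library 1, shEZH2 library 2, sgEV library 2 or sgEZH2 library 1 (adjusted p = 0.0515 to 0.0923). BNIP3 missed the threshold without EV library 1 (adjusted p = 0.0516). DESeq2 did not call the differences of ENO2 (adjusted p = 0.104), BNIP3 (adjusted p = 0.12), EGLN1 (adjusted p = 0.0737) or NDRG1 (adjusted p = 0.119). The line, the tool of depletion and the remaining EZH2 transcript cannot be told apart.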

How the results depend on the processing

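Of 3873 alternative values for the named genes, 3658 kept their call or its absence, 151 lost a call, 64 gained one and 0 reversed. Values called in neither setting are among the 3658, and only genes called before the change of setting could count as reversed. Counts of the 37 genes moved by over 1.5 times in these cases, and the cause was not tested. With shEZH2, 8 in place of 13 rose with spike-in scaling, and leaving out single libraries gave 5 to 9 that fell. With guide 5, 11 in place of 21 fell with spike-in scaling, and leaving out single libraries gave 11 to 23 lower and 2 to 6 higher. Between the guides, the 6 lower became 0 with spike-in scaling and 2 with only the 4 libraries compared, and single libraries left out gave 1 to 15 lower and 0 to 1 higher. In EOL-1, single libraries left out gave 2 to 6 lower in place of 3. With DESeq2, 6 in place of 10 genes differed upward between the lines. Each fit without a single library leaves a group with 1 library and takes the spread from the groups that keep 2.

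Over all genes, DESeq2 called 905 higher and 939 lower with shEZH2 in place of 1824 and 1934, 1346 and 1279 with guide 1 in place of 2255 and 2233, 1303 and 1245 with guide 5 in place of 2192 and 2162, 1122 and 748 in EOL-1 in place of 2099 and 1639, and 913 and 1128 for the difference between the lines in place of 1689 and 1904. Spike-in scaling gave 805 higher with shEZH2, 1015 lower with guide 1, 828 lower with guide 5, and 0 higher and 1 lower between the guides in place of 11 and 46. Single libraries left out gave as few as 1186 higher with shEZH2, 1243 higher and 1234 lower with guide 1, 1174 higher and 1186 lower with guide 5, and 1020 lower in EOL-1, and between the guides 5 to 417 higher and 3 to 455 lower. A fit of only the 4 libraries gave 6 and 15 between the guides.

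Replicate numbers are shared by the groups, but no label says that a number marks a shared culture or day. Deviations of same-numbered libraries correlated at 0.17 for EV and shEZH2, -0.04 and -0.01 for sgEV and guides 1 and 5, 0.29 between the guides and -0.25 in EOL-1. With the replicate number as a block, 15 of the 37 genes rose and 9 fell with shEZH2, 5 and 11 with guide 1, 4 and 23 with guide 5, 6 and 3 in EOL-1, 11 and 5 differed between the lines, and 8 were lower between the guides. Over all genes the block gave 33 higher and 96 lower between the guides. Crossing the EOL-1 numbers, an alternative chosen after seeing the data, gave 6 and 3 of the 37 and 2199 and 1724 of all genes. Low counts limit PFKM, ANKRD37, PDK3 and, in EV and EOL-1, ENO2.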
